A study of Bos taurus with 6 samples.

Results

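The interferon regulatory factors (IRFs) and SPI1, also called PU.1, are transcription factors that were followed here in the intramuscular fat of Chinese Qinchuan cattle. The genes were taken by symbol from the mRNA count table, where 8 of the 9 named genes had a row among 25444 genes: SPI1, IRF1, IRF2, IRF3, IRF4, IRF5, IRF8 and IRF9. IRF7 was not analysed here. Steers were males castrated by surgery at 6 months, and bulls were males left intact. All animals were weaned at 3 months, fed alike and slaughtered at 24 months, and the fat was cut from the sternomandibularis, a neck muscle. Each group had 1 mRNA library of pooled animals and 2 miRNA libraries. The design text puts 6 animals in each mRNA pool and 3 in each miRNA pool, whereas the sample descriptions give 3 and 1.

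The mRNA libraries held 12677375 counts in steers and 9868415 in bulls. With 1 pool per group, the tests below compare these 2 libraries and not the conditions, and there is no replicate check on any mRNA difference. Adipocyte markers made up 0.28% of the steer counts and 0.389% of the bull counts, and none of the 10 was at 0. Skeletal muscle markers took 0.266% and 0.52%, and fibroblast and matrix markers took 9.02% and 5.43%, so the dissected fat also held RNA of muscle and connective tissue.

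IRFs bind DNA through a shared helix-turn-helix domain and turn signals from interferons and pathogen sensors into transcription. SPI1 is an ETS-family factor that directs myeloid and B cell development, and IRF4 and IRF8 bind composite DNA elements together with it. IRF3, IRF5 and IRF7 act below pattern recognition receptors, and IRF9 is the DNA-binding subunit of the complex ISGF3, which answers type I interferon. IRF1 and IRF2 bind the same elements, where IRF1 mostly activates and IRF2 mostly represses. In fat, SPI1, IRF5 and IRF8 are known mainly from resident macrophages, and IRF3 and IRF4 are also known from adipocytes themselves.

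In steers 5 of the 8 genes were called down, 0 up and 3 were not called. Calls needed a log2 fold change past 1 in either direction together with an adjusted p below 0.05, from an exact binomial test (two-sided) with Benjamini-Hochberg adjustment over all 17752 genes with at least 1 count. The 5 called genes were SPI1, IRF8, IRF4, IRF5 and IRF1, or 62.5% of the 8. By the same rule 8.13% of all tested genes were called down and 4.37% were called up. Among the 10464 genes with at least 100 counts over both libraries, as all 8 had, 6.67% were called down. The median log2 fold change, steers over bulls, was -1.53 over the 8 genes, against 0.01 over all tested genes and 0.04 over those with at least 100 counts. In whole tissue, fewer cells of a type and less RNA per cell cannot be told apart.

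SPI1 had 141 counts in steers and 467 in bulls. After scaling to a common library size these were 135 and 487 normalised read counts, 3.6-fold higher in bulls (95% Clopper-Pearson interval 2.98 to 4.38, counting error only; adjusted p = 1.8e-46, exact binomial test). Of the genes with at least 100 counts, 2.61% had a lower log2 fold change than SPI1. IRF8, which works with SPI1 in monocytes, dendritic cells and B cells, had 63 counts in steers and 211 in bulls, or 60.4 and 220 normalised. Its level was 3.65-fold higher in bulls (2.74 to 4.91; adjusted p = 1.8e-21, exact binomial test). The fold differences of SPI1 and IRF8 were thus nearly equal in size.

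IRF4, a factor of plasma cells, activated T cells, dendritic cells and alternatively activated macrophages, stood apart. It had 10 counts in steers and 149 in bulls, or 9.59 and 155 normalised, a 16.2-fold higher level in bulls (8.58 to 34.5; adjusted p = 3.5e-34, exact binomial test). Only 27 of the 10464 genes with at least 100 counts, 0.258%, had a lower log2 fold change. The steer value rests on few reads, and its interval is the widest of the 8 genes.

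IRF5, known as a factor of proinflammatory macrophages that acts below Toll-like receptors, differed by a size similar to that of SPI1 and IRF8. It had 227 counts in steers and 716 in bulls, or 218 and 747 normalised, 3.43-fold higher in bulls (2.95 to 4; adjusted p = 2.3e-67, exact binomial test). IRF3, which is expressed in most cells and drives type I interferon after sensing of foreign nucleic acid, had 542 and 607 counts. Its normalised values of 520 and 633 lay 1.22-fold apart (1.08 to 1.37), past the adjusted p (0.0032, exact binomial test) but short of the fold threshold. IRF5 therefore passed and IRF3 did not.

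IRF1, which interferon-gamma induces and which activates antigen presentation genes, had 308 counts in steers and 690 in bulls. The normalised counts of 295 and 720 made it 2.44-fold higher in bulls (2.13 to 2.8; adjusted p = 2.6e-40, exact binomial test), the smallest fold of the 5 called genes. IRF2, its antagonist, had 271 and 297 counts, or 260 and 310 normalised, a 1.19-fold difference that did not pass (adjusted p = 0.093, exact binomial test; log2 fold change -0.25, interval -0.50 to -0.01). IRF9 had 419 and 458 counts, or 402 and 478 normalised. It was 1.19-fold apart (1.04 to 1.36; adjusted p = 0.031, exact binomial test) and was not called, since its log2 fold change of -0.25 was inside the threshold. In the RefSeq gene table RNF31, with 670 and 647 counts, overlaps IRF9, and LOC112444593 overlaps IRF2. The use of strand in counting is not given in the sources used here, so how reads in the shared stretches were assigned is not known. The log2 fold change was below 0 for each of the 8 genes, and the step between IRF1 at -1.29 and IRF3 at -0.29 separated the called from the uncalled.

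**Figure D1:**
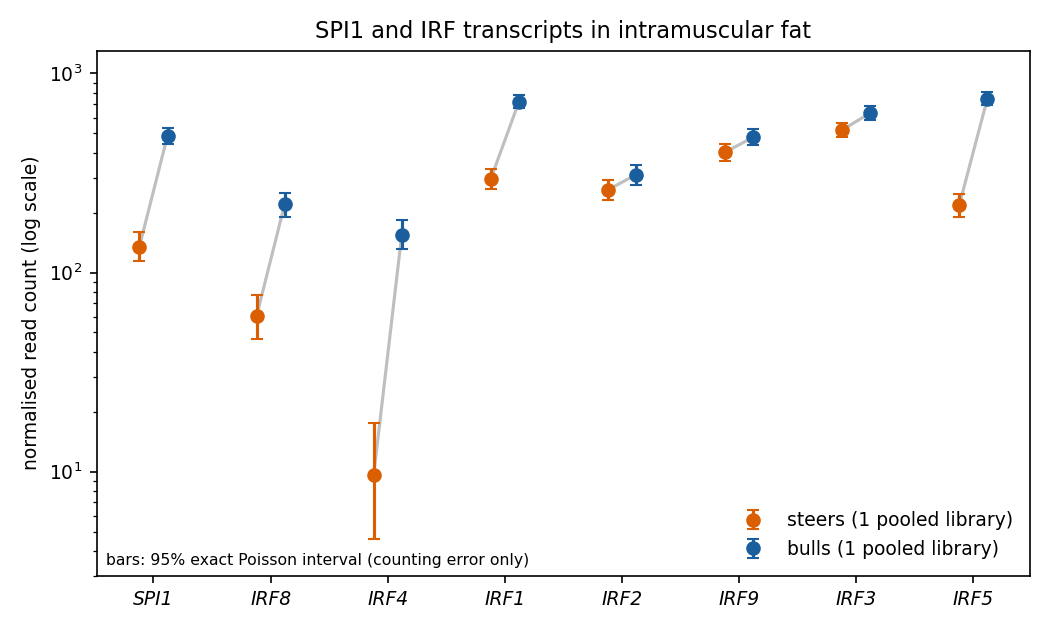
Normalised read count on a log axis for each of the 8 genes in the steer library (orange) and the bull library (blue), with bars for the 95% exact Poisson interval, which covers counting error only. The paired points lie far apart for SPI1, IRF8, IRF4, IRF1 and IRF5 and close together for IRF2, IRF9 and IRF3.

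**Figure D2:**
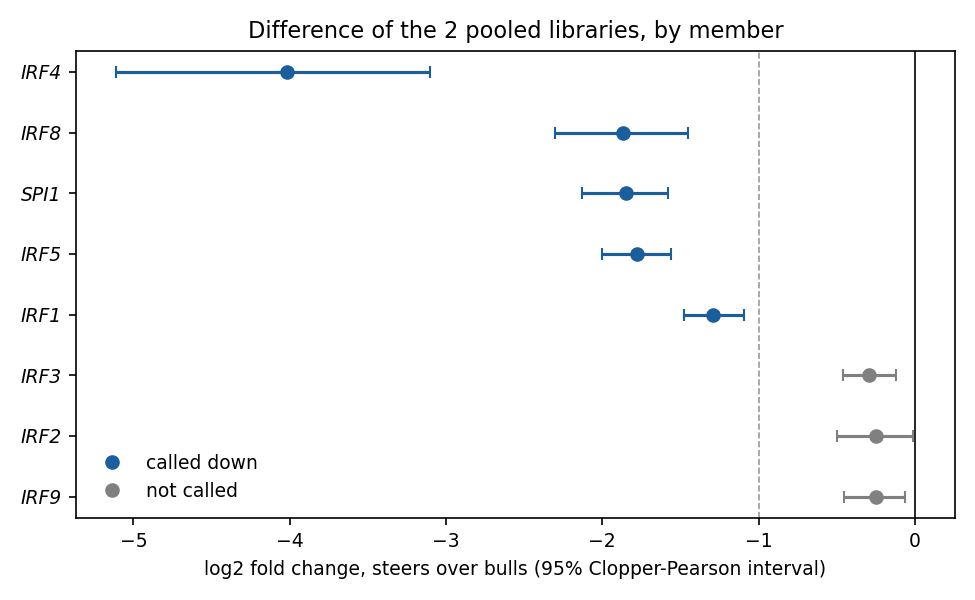
Log2 fold change of steers over bulls for each gene, with its 95% Clopper-Pearson interval. The dashed line marks the fold threshold at -1 and the solid line marks 0. IRF4 is lowest at -4.02, the interval of each of the 5 called genes lies wholly below the dashed line, and those of IRF3, IRF2 and IRF9 lie wholly above it.

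These tests take counting error alone. No variation between pools can be estimated for mRNA, and the miRNA libraries gave an estimated common coefficient of variation of 0.339. When a coefficient of variation of 0.2 between animals' pools was assumed in edgeR's exact test, all 5 genes were still called. At an assumed 0.4 only IRF4 was (adjusted p = 0.022), and SPI1, IRF8, IRF5 and IRF1 gave adjusted p = 0.7, 0.71, 0.78 and 1.

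The balance between the factors was examined by the ratio of their counts within a library, which does not depend on how the libraries were scaled. Transcript lengths were not used, so a ratio is read only as it changed between the libraries. Of the 28 pairs, 22 changed past an adjusted p of 0.05 by Fisher's exact test (two-sided, Benjamini-Hochberg over the 28 pairs). All 15 pairs of a called with an uncalled gene did so, as did 7 of the 10 pairs of called genes and 0 of the 3 pairs of uncalled genes. The pairs were grouped by calls on the same counts, so the 15 mixed pairs are no separate evidence. Each of the 7 passing pairs of called genes holds IRF4 or IRF1. All 28 pairs reuse the counts of the same genes, so they are not independent of each other or of the calls.

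The ratios among SPI1, IRF8 and IRF5 did not change past the threshold. There were 2.24 SPI1 counts for each IRF8 count in steers and 2.21 in bulls, a log2 change of 0.02 with an interval of -0.49 to 0.53 (adjusted p = 1, Fisher's exact test). For SPI1 over IRF5 the ratio was 0.621 in steers and 0.652 in bulls, a log2 change of -0.07 (-0.43 to 0.29). Changes of the ratio within these intervals remain possible at this depth. Nor did the ratios among IRF3, IRF9 and IRF2 pass, for example 0.773 IRF9 counts per IRF3 count in steers and 0.755 in bulls, a log2 change of 0.04 (-0.22 to 0.29).

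IRF4 changed its proportion to every other gene. SPI1 had 14.1 counts for each IRF4 count in steers and 3.13 in bulls, a log2 change of 2.17 (1.20 to 3.30; adjusted p = 4.6e-07, Fisher's exact test). IRF8, its closest relative, had 6.3 counts for each IRF4 count in steers and 1.42 in bulls, a log2 change of 2.15 (1.12 to 3.32; adjusted p = 5.9e-06, Fisher's exact test). Activator and repressor also shifted against each other, with 1.14 IRF1 counts for each IRF2 count in steers and 2.32 in bulls, a log2 change of -1.03 (-1.35 to -0.72; adjusted p = 9.6e-11, Fisher's exact test). IRF1 differed less between the libraries than SPI1 did. The ratio of SPI1 to IRF1 was 0.458 in steers and 0.677 in bulls, a log2 change of -0.56 (-0.91 to -0.22; adjusted p = 0.0012, Fisher's exact test). For the genes that act below the sensors, the ratio of IRF3 to IRF5 was 2.39 in steers and 0.848 in bulls, a log2 change of 1.49 (1.22 to 1.77; adjusted p = 1e-26, Fisher's exact test).

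**Figure D3:**
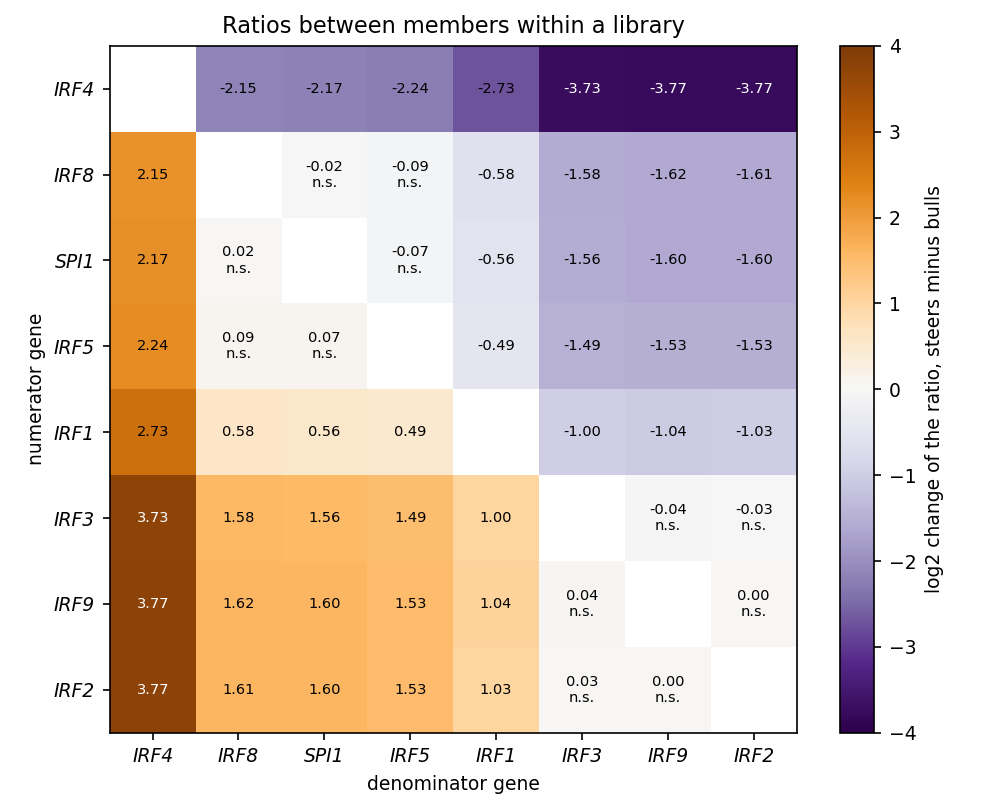
Log2 change, steers minus bulls, of the count ratio of the row gene to the column gene within a library, for all pairs of the 8 genes. Cells marked n.s. had an adjusted p of 0.05 or more. The SPI1, IRF8 and IRF5 block and the IRF3, IRF9 and IRF2 block hold the small changes, and the IRF4 row and column hold the largest.

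Markers of myeloid cells, the main carriers of SPI1, IRF5 and IRF8, were lower in steers as well, neutrophil genes being listed apart. The neutrophil markers, given below, did not share this, with 2 called up in steers and 0 down. Of the 13 other myeloid markers, 11 had a row, of which 8 were called down, 0 up and 3 were not called, with a median log2 fold change of -1.62. These myeloid markers summed to 20821 counts in steers and 43684 in bulls, or 0.164% and 0.443% of all counts. The range ran from CD14, the lipopolysaccharide co-receptor, with 534 and 2490 counts (log2 fold change -2.34), to C1QA among the called, with 3487 and 8137 counts (-1.34). CSF1R, the receptor that keeps macrophages alive, had most counts, 7057 and 12309, and was not called at -0.92. The part of these cells in the differences of SPI1 and the IRFs was not tested.

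The genes were also set against the summed myeloid markers. SPI1 had 6.77 counts per 1000 myeloid marker counts in steers, beside 10.7 in bulls, a log2 difference of -0.66 (-0.94 to -0.38). IRF8 differed by -0.67 (-1.11 to -0.26) and IRF5 by -0.59 (-0.81 to -0.37) on this scale, about the same as SPI1. IRF4 differed by -2.83 (-3.92 to -1.91). For IRF1 the values were 14.8 and 15.8, a log2 difference of -0.09 with an interval that spans 0 (-0.29 to 0.10). IRF2, IRF9 and IRF3 were higher in steers per myeloid marker count, by 0.94, 0.94 and 0.91. These values depended on which markers made the sum, since CSF1R, CD163 and C1QA gave 16155 of its counts in steers and 28498 in bulls. Without these 3 markers the differences of SPI1, IRF8 and IRF5 were -0.03 (-0.31 to 0.25), -0.04 (-0.47 to 0.37) and 0.05 (-0.18 to 0.27), all with intervals that span 0. Only IRF4 stayed lower in steers on this smaller sum, at -2.19 (-3.29 to -1.27), while IRF1 turned to 0.54 (0.33 to 0.74) and IRF2, IRF9 and IRF3 lay at 1.57, 1.57 and 1.54. These ratios were chosen after the data had been seen and carry counting error alone.

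Lymphocyte markers were lower in steers too. All 16 T and NK cell markers had a row, 14 were called down and 2 were not called, with a median of -3.06 (-2.90 with genes at 0 set to a bound of 3 counts). Their sum was 253 counts in steers and 1577 in bulls, and CD3G, CD7 and KLRD1 were at 0 in steers. CD3G had 34 counts in bulls, so that it was lower in steers by at least 12.3-fold by that bound, and among the called genes with counts in both libraries CD4 had the smallest change at -2.03. CD7 with 10 counts in bulls and KLRD1 with 7 were lower in steers by at least 3.63-fold and 2.54-fold by the bound. NKG7, a granule protein of killer cells, had most counts, 44 and 338. Per T and NK marker count, SPI1, IRF8 and IRF5 were higher in steers, by log2 differences of 0.91, 0.90 and 0.98, and IRF4 remained lower at -1.26 (-2.37 to -0.31).

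Markers of B cells were scarce. Of 8, 7 had a row and 5 had counts, of which 1 was called down and 4 were not called (median -1.71, or -0.95 with the bound), and the sums were 26 counts in steers and 97 in bulls. MS4A1 and CD79B, which define the lineage, were at 0 in both libraries, PAX5 was at 0 in steers, and CD22 with 14 and 68 counts was the called gene. Plasma cell genes had 420 and 4634 counts over 5 genes, 3 of them called down and 2 not called (median -2.79). IGLL1, as named in the table, held 12 and 4174 of those counts, IGJ had 22 and 142, and MZB1 was at 0 in steers and had 74 counts in bulls. SDC1, a plasma cell marker that epithelial cells also carry, gave most of the steer counts and went the other way, with 384 and 240 counts (0.56), and was not called. Dendritic cell markers summed to 394 and 558 counts, with a median of -1.22 and 2 of the 5 that had a row called down, XCR1 with 5 and 17 counts and FLT3 with 22 and 62, and TCF4 with most counts was not called. Per dendritic marker count, SPI1, IRF8 and IRF5 were lower in steers, by log2 differences of -1.23, -1.24 and -1.16. IRF4 lay at -3.40 and IRF1 at -0.66, while IRF2, IRF9 and IRF3 were higher, at 0.37, 0.37 and 0.34. TCF4 gave 292 of the 394 steer counts of this sum. Per B cell marker count, SPI1, IRF8 and IRF5 differed by 0.17, 0.16 and 0.24, with intervals that span 0. IRF4 remained lower there (interval -3.27 to -0.82). IRF4 was not set per plasma cell marker count. The summed plasma cell counts had a log2 fold change of -3.59. SDC1 gave 384 of the 420 steer counts and IGLL1 (-8.56) gave 4174 of the 4634 bull counts. The sum thus rests on genes that went opposite ways and is not read against IRF4. IRF4 is known from plasma cells and dendritic cells and IRF8 from B cells and dendritic cells, and the part of each cell type was not tested.

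Relatives named for the same families were looked at beside them. Of 6, 5 had counts, 1 was called down and 4 were not called. That was SPIB, the ETS factor closest to SPI1 in B cells and plasmacytoid dendritic cells, with 0 counts in steers and 7 in bulls, a difference of at least 2.54-fold by the same bound. SPIC, the factor of iron-recycling macrophages, was at 0 in both. IRF2BP2, a corepressor that binds IRF2, had most counts, 996 and 1015 (-0.15). The median of the 5 was -0.15.

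Genes that act above the IRFs were counted next. Of 21 sensor, adaptor and kinase genes, 20 had a row, 5 were called down, 0 up and 15 were not called, with a median of -0.56. TLR7, the endosomal sensor of single-stranded RNA that signals to IRF5 and IRF7, had 6 counts in steers and 147 in bulls (log2 fold change -4.74, interval -6.21 to -3.58). UNC93B1, the chaperone that carries TLR7 to endosomes, had the smallest called change, with 382 and 922 counts (-1.39). The other called genes were TMEM173, the adaptor STING upstream of IRF3, at -1.98, the kinase IKBKE, which phosphorylates IRF3, at -1.90 and the RNA sensor IFIH1 at -1.51. MYD88, the adaptor of most Toll-like receptors, had most counts, 907 and 1129, and was not called. TBK1, the main IRF3 kinase, was not called at -0.60.

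The interferon receptor pathway links interferon to ISGF3. Of its 12 listed genes, 11 had counts, 3 were called down, 0 up and 8 were not called, with a median of -0.26. IFNG, the gene of interferon-gamma, was at 0 in both libraries. SOCS3, a feedback inhibitor of JAK kinases, was lowest with 69 and 233 counts (-1.88), and IFNAR1, a chain of the type I interferon receptor, had the smallest called change with 162 and 313 counts (-1.07). JAK1 had most counts, 3427 and 3461. Beside IRF9 at -0.25, its binding partner STAT2 had 633 and 575 counts (0.02), and neither was called.

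Of 16 DNA-binding partners and antagonists of SPI1 and the IRFs, 15 had a row, 6 were called down, 0 up and 9 were not called, with a median of -0.83. IKZF1, the lymphoid factor Ikaros, had 19 and 97 counts (-2.47). BATF, which recruits IRF4 and IRF8 to composite elements with JUN, had 6 and 25 (-2.18), and JUN itself had the smallest called change and most counts, 2774 and 5383 (-1.08). MYB, RUNX1 and GATA2 were also called, and BATF3, the dendritic cell partner of IRF8, was not, at -0.99. CEBPA, a partner of SPI1 that adipocytes also express, was not called at -0.83.

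Known targets of the factors were listed for SPI1, IRF1 and ISGF3. Of 26 SPI1 targets, 24 had a row, 20 were called down, 0 up and 4 were not called, with a median of -1.75, and each of the 24 lay below 0. LYZ, lysozyme, was lowest with 22 and 421 counts (-4.38), CSF2RB had the smallest called change with 164 and 368 (-1.29), and CSF1R had most counts. Of these targets 7 also stand among the myeloid or neutrophil markers, so the list is not separate from them. Of 17 IRF1 targets, 16 had a row, 11 were called down, 0 up and 5 were not called, also with a median of -1.75. IDO1, the tryptophan-degrading enzyme, had 23 and 375 counts (-4.15), GBP5 had the smallest called change with 60 and 125 (-1.18), and B2M, the light chain of MHC class I, had most counts, 6419 and 19945 (-1.76). Of the immunoproteasome subunits, PSMB8 with 235 and 862 counts and PSMB9 at -2.08 were called and PSMB10 at -0.73 was not. Of the peptide transporter chains, TAP1 at -1.75 was called and TAP2 at -0.93 was not, and TAPBP was not called at -0.11.

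Of 24 genes that ISGF3 is known to induce, 19 had counts, 8 were called down, 0 up and 11 were not called, with a median of -0.83 (-0.77 with the bound for ISG20, at 0 in steers). IFIT2 was the lowest called gene with 4 and 25 counts (-2.77), EIF2AK2, the kinase PKR, had the smallest called change with 17 and 36 (-1.20), and IFI6 had most counts, 375 and 1115 (-1.69). MX1, a classical interferon-induced antiviral gene, had 325 counts in steers, 232 in bulls and was not called (0.36). DDX60 was at 0 in both libraries.

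**Figure D4:**
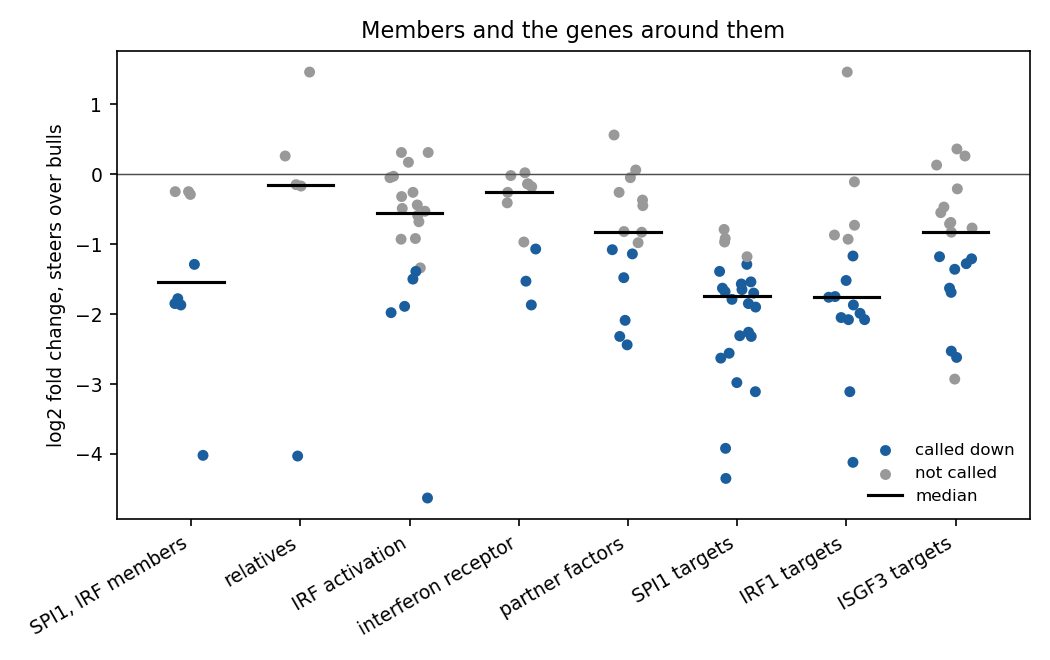
Log2 fold change of steers over bulls for the 8 genes and for the genes that act with them. For the lists, 0.5 was added to each count before scaling. Each point is a gene, blue where called down and grey where not called, and the black line is the list's median. The medians lie at -1.75 for SPI1 and IRF1 targets and at -0.26 for interferon receptor genes.

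The miRNA libraries give the only replicated view of this circuit. SPI1 is known to activate the genes of miR-223, miR-142, miR-342 and miR-424 during myeloid development. miR-155 is known to repress SPI1, and the miR-146 pair restrains signalling below Toll-like receptors, ahead of IRF5 and IRF7. The mature bovine sequences that the study lists are shown for the called pair, the other arm of miR-142, and the repressors, written 5′ to 3′ with T for U and with the seed, bases 2 to 8, in capitals.
miR-223: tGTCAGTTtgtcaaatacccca
miR-142-5p: cATAAAGTagaaagcactac
miR-142-3p: aGTGTTTCctactttatggatg
miR-155: tTAATGCTaatcgtgataggggt
miR-146a: tGAGAACTgaattccataggttgt
miR-146b: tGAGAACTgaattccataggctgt
miR-146a and miR-146b share the seed GAGAACT and the other seeds shown differ from each other. The arms miR-142-5p and miR-142-3p come from opposite strands of the same hairpin.

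The 4 miRNA libraries held 6556511 to 10452582 counts, and 1073 sequences entered the quasi-likelihood test of edgeR, adjusted after Benjamini and Hochberg over all of them. Of the 8 miRNAs, 2 were called down in steers and 0 up, beside 7.08% of all tested sequences called down and 7.08% called up. In 2 of the 8 both steer libraries lay below both bull libraries, beside 31.5% of all tested sequences, and in 0 of the 8 both lay above, beside 26.7%.

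miR-223, the granulocyte and monocyte miRNA, measured 5.26 and 2.69 CPM (counts scaled to a common library size with TMM factors) in the steer libraries and 29.5 and 30.1 in the bull libraries. The groups did not overlap, at 3.97 ± 1.82 CPM and 29.8 ± 0.444 CPM (mean ± SD, n = 2 libraries each). Its log2 fold change was -2.91 (SE 0.56; edgeR adjusted p = 1.5e-05). The call was lost without the second steer library (-2.46, edgeR adjusted p = 0.11) and under scaling to total counts (-3.45, edgeR adjusted p = 0.069).

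miR-142-5p, a miRNA of all blood lineages, measured 572 and 407 CPM in steers and 2040 and 1010 in bulls, again without overlap. The means were 490 ± 117 and 1530 ± 731 CPM (SD, n = 2 each), and the log2 fold change was -1.64 (SE 0.50; edgeR adjusted p = 0.015). This call was less stable, holding in 1 of 4 when each library was left out in turn. It was lost without the first steer library (-1.87, edgeR adjusted p = 0.37), without the second steer library (-1.39, edgeR adjusted p = 0.75) and without the first bull library (-0.85, edgeR adjusted p = 0.28).

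The other arm, miR-142-3p, measured 29.1 and 20.4 CPM in steers and 55 and 25.4 in bulls, so the groups overlapped, and it was not called at -0.70 (SE 0.48; edgeR adjusted p = 0.33). Likewise miR-342 with 231 and 158 against 330 and 216 CPM was not called (-0.49, SE 0.49; edgeR adjusted p = 0.53). miR-424-5p leaned the other way, with 19.8 and 8.41 CPM in steers and 9.39 and 4.4 in bulls, and was not called (1.03, SE 0.53; edgeR adjusted p = 0.18). Of the 5 mature miRNAs from genes that SPI1 is known to activate, both arms of miR-142 among them, 2 were called down and 3 were not called. Of all tested sequences 7.08% were called down.

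The repressor miR-155 measured 267 and 204 CPM in steers and 404 and 247 in bulls, and its groups overlapped (-0.47, SE 0.49; edgeR adjusted p = 0.56). miR-146a measured 472 and 429 against 1010 and 458 CPM (-0.71, SE 0.50; edgeR adjusted p = 0.35). For miR-146b the values were 134 and 156 CPM in steers against 220 and 70.6 in bulls (-0.01, SE 0.47; edgeR adjusted p = 0.99). None of these 3 was called, and the first bull library was the highest of the 4 for each.

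**Figure D5:**
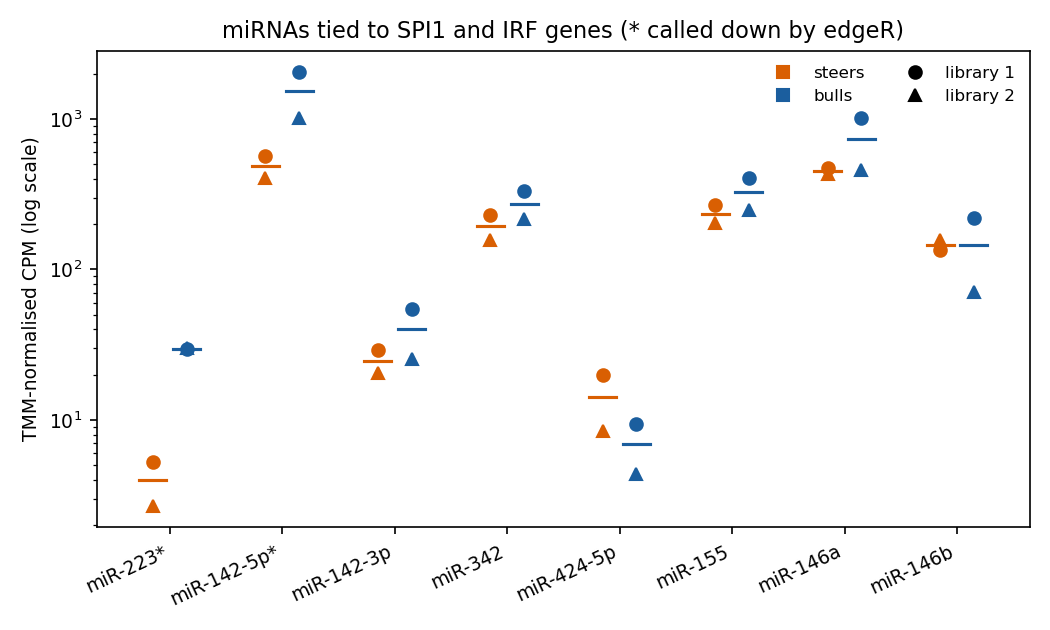
TMM-normalised CPM on a log axis of the 8 miRNAs in each steer library (orange) and bull library (blue), with circles for library 1, triangles for library 2 and lines for group means. miR-223 and miR-142-5p, starred, are the miRNAs called down, with no overlap between groups, and the groups of the other 6 overlap.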

How the data were processed

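Intramuscular fat was profiled by mRNA-seq on an Ion Proton and by miRNA-seq on an Illumina HiSeq. The authors deposited raw counts for both, without normalization. They trimmed reads and aligned mRNA reads to the bovine genome with MapSplice and small RNA reads with BWA to miRBase and the genome. The submitters' notes name a human build, which the methods do not. The counting tool and its use of strand are not given in the sources used here.

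The mRNA counts were scaled by median-of-ratios size factors, 1.04 for steers and 0.959 for bulls, and compared by an exact binomial test in scipy 1.17.1, with p as the doubled smaller tail. List medians used a prior of 0.5 counts. miRNA counts were fitted in edgeR 4.0.16 under R 4.3.3 with filterByExpr, TMM, glmQLFit and glmQLFTest, which tested 1073 of 8800 sequences. The paper describes RNA from all steers and bulls, with 3 animals in each miRNA library. By that account same-group libraries would hold separate animals, but the labels do not say so. The miRNA p-values measure the spread between these libraries. The mRNA p-values measure counting error alone. The 95% intervals hold counting error alone, and without molecular identifiers copies made by PCR can make even that error look too small. Both tests were run on generated counts with known changes first. The generated mRNA counts held no variation between pools, and the generated miRNA counts held less than the 0.339 estimated from the data. These runs thus do not show how often such variation gives false calls. Alternatives were other scalings, filters, tools, assumed variation, no fold threshold, the replicate number as a block, and leaving out each miRNA library.

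The genes and lists were chosen with earlier results of these data known, and the lists were written from general knowledge. All 9 symbols and the 8 miRNAs are named, and of each list the called genes with the lowest and highest change, the gene with most counts and markers at 0. Further list genes were named for their role after their values were seen. Some list genes are counted but not reported here by name.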

Additional observations from a re-analysis of the deposited data

How the results depend on the processing

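Across the mRNA alternatives each of the 8 genes kept a negative log2 fold change: SPI1 from -2.09 to -1.81, IRF8 from -2.11 to -1.79, IRF4 from -4.26 to -3.48, IRF5 from -2.02 to -1.76, IRF1 from -1.53 to -1.27, IRF2 from -0.49 to -0.24, IRF3 from -0.52 to -0.27 and IRF9 from -0.49 to -0.24. With the main settings 776 genes were called up and 1444 down. Assumed coefficients of variation of 0.2 and 0.4 gave 368 up and 762 down, and 52 up and 93 down, with 1 of the 8 genes called at 0.4. Without a fold threshold 3535 genes were called up and 3254 down, and IRF3 and IRF9 joined the 5. Scaling to total counts moved the median of all genes to -0.23 and the calls to 539 up and 2006 down, which made 21.2% of calls upward in place of 35.0%, with the same count of 5 for the 8 genes. For miRNA, 76 sequences were called up and 76 down in edgeR. Scaling to total counts called 1 up and 0 down, with 298 at an unadjusted p under 0.05, and 0 of the 8 listed miRNAs. Upper-quartile scaling called 101 up and 52 down. A filter of 1 count in 2 libraries called 39 up and 47 down and 1 of the listed, miR-142-5p being lost (edgeR adjusted p = 0.075). Known bovine miRNAs alone gave 39 up and 36 down. With the replicate block the calls were 133 up and 119 down, and it changed no call among the 8 miRNAs. Same-numbered libraries deviated together (correlation 0.30), but the labels tie no number to a shared animal or day. Leaving out a library gave 20 to 110 calls up, 6 to 45 down and 0 to 2 of the listed, with the lone library assumed to vary like the other group. The left-out fits ranged from -1.18 to 0.15 for miR-142-3p, -0.80 to 0.04 for miR-342, -0.81 to 0.12 for miR-155, -1.20 to 0.17 for miR-146a and -0.64 to 1.22 for miR-146b, and without the first bull library miR-424-5p was called up (1.87, edgeR adjusted p = 0.029). miR-146b turned positive at 0.05 in DESeq2, 0.21 in limma-voom, 0.16 with upper-quartile scaling, 0.25 among known bovine miRNAs and 0.21 with the replicate block. A myeloid sum without CSF1R, CD163 and C1QA, chosen after seeing the data, turned IRF1 and IRF5 per myeloid marker count to 0.54 and 0.05. The causes of these changes were not tested. Depth limits IRF4 most, at 10 counts in steers, and list genes with few counts.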

Other observations

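In the RefSeq gene table, the neighbours of the called genes that had counts were COX4I1 and FOXF1 beside IRF8, EXOC2 and DUSP22 beside IRF4, SLC22A5 beside IRF1, and KCP and TNPO3 beside IRF5, and none was called. Their log2 fold changes ran from -0.12 for DUSP22 to 0.32 for COX4I1, apart from KCP with 9 counts in steers and 1 in bulls (3.05).

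Neutrophil genes were a further myeloid group. Of 7 markers, 6 had a row, 2 were called up in steers and 0 down, with a median of -0.24 (0.05 with genes at 0 set to a bound of 3 counts) and sums of 279 and 90 counts, so that median and sum differ in sign. S100A8, an alarmin of neutrophils and monocytes, had 95 counts in steers and 8 in bulls (log2 fold change 3.45), and S100A9, which had most counts, had 149 and 29 (2.24). CXCR2 was at 0 in steers. Per neutrophil marker count, SPI1, IRF8 and IRF5 were lower in steers, with log2 differences of -3.36, -3.38 and -3.29. IRF4 and IRF1 were lower too, at -5.53 and -2.80, as were IRF2, IRF9 and IRF3 at -1.76, -1.76 and -1.80.

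Of 6 epithelial markers 3 were called up, with 246 and 35 counts in all: KRT8 with 148 and 7 counts, KRT18 with 77 and 20, and EPCAM with 8 and 0, while KRT14 was at 0 in both libraries (median 1.80, or 1.29 with the bound). Of 4 erythroid markers with a row, HBB was called up with 21 and 1 counts, HBA had 16 and 6, SLC4A1 had 0 and 1, and ALAS2 was at 0 in both. All 7 endothelial markers were uncalled, with a median of -0.30 and most counts for PECAM1, 4541 and 3723. Of 10 adipocyte markers 2 were called up and 1 down, with a median of -0.00. CIDEA had the highest called change at 2.75, FABP4 the lowest at -1.06, and CIDEC most counts, 9931 and 7501. Among 10 muscle markers 1 was called up, MYH1 (1.15), and 3 down, with MYH7 lowest (-2.23) and ACTA1 at most counts (-0.65). Among 6 fibroblast markers 2 were called up, COL3A1 (1.27), which had most counts, and COL1A1 (1.00).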
